A study of Mus musculus with 2 samples.

Results

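The genes described here encode laminin chains and the proteins that tie laminin into basement membranes: Lama2, Lama4 and Lama5 (alpha chains), Lamb1 and Lamb2 (beta chains), Lamc1 (a gamma chain), Nid1 and Nid2 (nidogens) and Hspg2 (perlecan). They were chosen by symbol, as 9 of the 53700 gene features of a single-nucleus RNA sequencing study of mouse quadriceps, a muscle of the front of the thigh. One group was a PTRF knockout and the other was wild type (WT). Both were C57BL/6N mice aged 3 months, and each genotype gave 1 library. Ptrf is the older symbol of Cavin1, a coat protein of caveolae, the small pits of the plasma membrane that are abundant in muscle, fat and endothelium. The sources used here give neither the allele nor how many animals went into a library. With 1 library per genotype no difference has a replicate check and no test between genotypes was made. Every interval below is a 95% interval for counting error only, so it covers neither the spread between animals nor that between libraries.

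Laminins are secreted heterotrimers of an alpha, a beta and a gamma chain that polymerise into the sheet around each muscle fibre and each vessel. Muscle fibres are sheathed mainly by trimers with the alpha 2 chain, also called merosin, which bind dystroglycan and integrin alpha 7 beta 1 on the fibre surface, and loss of LAMA2 in people causes a congenital muscular dystrophy. Trimers with the alpha 4 or alpha 5 chain are typical of vessels, and fat cells are also surrounded by a basement membrane. Nidogens link the laminin sheet to the type IV collagen network, and perlecan is a large heparan sulfate proteoglycan that binds both networks, dystroglycan and growth factors.

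The genes differ greatly in length on the GRCm38 assembly. Lama2 spans 639.7 kb (chromosome 10, 26980036 to 27619758, minus strand), whereas Lamb2 spans 10.8 kb (chromosome 9, 108479736 to 108490530, plus strand). Lama4 spans 144.7 kb (chromosome 10, 38965515 to 39110188), Lamc1 113.9 kb (chromosome 1, 153218922 to 153332786), Hspg2 101.9 kb (chromosome 4, 137468769 to 137570630) and Lama5 49.5 kb (chromosome 2, 180176373 to 180225859). Lamb1 spans 64.4 kb (chromosome 12, 31265234 to 31329644), Nid1 74.7 kb (chromosome 13, 13437551 to 13512269) and Nid2 60.5 kb (chromosome 14, 19751265 to 19811787). In the GENCODE M21 annotation 4 of the 9 (Lama2, Lama5, Lamc1 and Hspg2) overlap a small gene model or microRNA gene on their own strand, 2 (Nid1 and Nid2) overlap another gene on the opposite strand only and 3 overlap none. Whether the counting used strand or introns is not given, so part of the UMIs of overlapping genes is of uncertain origin, and levels are compared below between classes and genotypes for 1 gene; shares of UMIs among the alpha or beta chains are not scaled by gene length and give no order of chain levels.

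Promoters of 6 of the 9 genes were listed in RefSeq for GRCm38.p6. The 250 bases before the start are shown for 3 of them, because Lama2 and Hspg2 were higher and Lama5 lower in knockout myonuclei and because they differ in composition. Capitals mark GC boxes (GGGCGG) and E-boxes (CANNTG) on either strand. The Lama2 window (chr10:27616943-27617192, minus strand) lies inside the longer GENCODE M21 gene, the Lama5 window is chr2:180225860-180226109 (minus strand) and the Hspg2 window is chr4:137468553-137468802 (plus strand).
Lama2: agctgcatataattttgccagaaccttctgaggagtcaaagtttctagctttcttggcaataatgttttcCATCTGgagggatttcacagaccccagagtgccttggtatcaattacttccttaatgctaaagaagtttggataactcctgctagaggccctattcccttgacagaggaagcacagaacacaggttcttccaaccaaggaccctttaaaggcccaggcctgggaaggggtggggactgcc
Lama5: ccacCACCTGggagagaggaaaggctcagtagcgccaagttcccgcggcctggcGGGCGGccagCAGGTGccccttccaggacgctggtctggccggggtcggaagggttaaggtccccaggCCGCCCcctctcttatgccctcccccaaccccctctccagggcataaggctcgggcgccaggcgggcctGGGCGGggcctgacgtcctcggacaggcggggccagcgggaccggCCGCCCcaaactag
Hspg2: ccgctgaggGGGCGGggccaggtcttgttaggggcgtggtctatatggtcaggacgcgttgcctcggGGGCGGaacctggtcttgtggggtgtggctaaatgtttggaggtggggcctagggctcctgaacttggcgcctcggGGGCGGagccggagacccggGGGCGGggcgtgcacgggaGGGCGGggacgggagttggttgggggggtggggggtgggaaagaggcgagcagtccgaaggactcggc
The Lama2 window had 47.2% G and C, below the median of 52.4% over 32851 promoters, with 0 GC boxes and 1 E-box. Lama5 had 72.4% G and C, 4 GC boxes and 2 E-boxes, and Hspg2 had 70.0%, 5 GC boxes and 0 E-boxes. Of all promoters, 32.7% held a GC box and 66.2% an E-box in the same window. The sequence TATAAA was in none of the 6 members' windows and in 12.4% of all, CCAAT was in those of Lamb1 and Nid1 (1 each) and in 33.8% of all, and AAAGGTCA, the site of the Nr4a nuclear receptors, was in none of the 6 and in 1.34% of all. These matches describe letters in a window and say nothing of which factors bind there.

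The knockout library held 7762 nuclei and 16052317 UMIs (unique molecular identifiers, each counted as 1 RNA molecule), with a median of 1562 per nucleus. WT held 10272 nuclei and 9746980 UMIs, with a median of 703. Cavin1 had 2 UMIs in the knockout library and 75 in WT, and in myonuclei-like nuclei 0 and 42, where a count of 3 is the limit that 0 allows; the 2 knockout UMIs were in adipocyte-like nuclei. Nuclei were clustered without the 9 genes and clusters were named from marker genes. Myonuclei-like nuclei numbered 5438 in the knockout and 9224 in WT, fibro-adipogenic-like 586 and 441, macrophage-like 218 and 133, mural-like (pericyte and smooth muscle) 90 and 114, and myotendinous junction-like 95 and 138. An unnamed cluster of 115 and 251 nuclei scored highest on the adipocyte markers, but none of them was among its 10 leading genes. Adipocyte-like nuclei, which leave that cluster out, numbered 949 and 5, lymphatic endothelial-like 185 and 34, and blood endothelial-like 87 and 12, so these classes were described in the knockout only. Most knockout myonuclei lay in clusters 1, 2, 5 and 6 and most WT myonuclei in clusters 0, 3, 4 and 9, and 24 barcodes occurred in both libraries. The knockout library held nuclei of both sexes, 1527 with Xist and no Y-linked UMI and 3103 with Y-linked UMIs and no Xist, against 2 and 2721 in WT. Values within sex-linked marking are therefore given as well.

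In whole libraries, 3 of the 9 genes were past 2-fold higher in the knockout and 0 past 2-fold lower, beside 8.51% and 21.1% of 17794 genes with at least 20 UMIs. Lama2 had 13033 UMIs in the knockout and 1930 in WT, or 812 and 198 CPM (counts scaled to a total of 1000000 UMIs), Lama4 had 2667 and 301, and Lamb1 had 470 and 45. Which nuclei held these UMIs differed by gene. Adipocyte-like nuclei held 1947 of the 2667 knockout Lama4 UMIs and 357 of the 470 Lamb1 UMIs, but 173 of the 13033 Lama2 UMIs. In WT the unnamed cluster held 105 of the 301 Lama4 UMIs, and in the knockout 84. The levels below are therefore CPM of a class, from UMIs summed over its nuclei in each library, and ratios were taken within a class after 0.5 UMI was added to each sum.

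Summed over the nuclei of muscle fibres, Lama2 was higher in the knockout. Myonuclei-like nuclei held 10533 Lama2 UMIs in the knockout and 1515 in WT, or 852 and 172 CPM, a log2 ratio of 2.31 (interval 2.23 to 2.39). Of the 9 genes in these nuclei, Lama2 alone was past 2-fold higher, while Lama4, Lamb1, Nid1 and Nid2 were past 2-fold lower. Over all 15793 genes with at least 20 UMIs, 4.56% were past 2-fold higher and 26.6% past 2-fold lower. The median log2 ratio of the 9 was -0.68, against -0.14 over all those genes. Ratios in myonuclei varied with gene length, with a median log2 ratio of 0.05 in the shortest of 5 equal groups of genes and -0.91 in the longest, which holds Lama2, Lama4, Lamc1 and Hspg2. Among the 600 genes over 300 kb, the median was -2.16 and 17 genes (2.83%) were past 2-fold higher, of which Lama2 ranked 5 by its ratio. The part of gene length in the ratios of the 9 genes was not tested. Lama2 also differed between myonuclear clusters of at least 50 nuclei in a library. It ranged from 105 to 1024 CPM in the knockout and 55.7 to 163 in WT. Cluster 2, with 1562 knockout and 24 WT nuclei, held 4848 of the 10533 knockout UMIs. Cluster 4 was level, at 105 (45.5 to 208) and 104 (85.2 to 126). In clusters 0, 1, 3, 5, 6, 9 and 16 the knockout was higher, with intervals apart. The part of unlike clusters in the Lama2 ratio was not tested.

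Much of the Lama2 RNA of WT myonuclei lay in a small set of junctional nuclei. The myotendinous junction is the fibre end that anchors to the tendon, and its nuclei, marked by Col22a1, held 6881 CPM of Lama2 in the knockout and 3801 in WT (1765 and 493 UMIs, log2 ratio 0.86, 0.71 to 1.00). These nuclei exceeded the myonuclei outside the junctions 9.68-fold in the knockout (9.19 to 10.2) and 35.6-fold in WT (31.8 to 39.7). Neuromuscular junction-like nuclei, 33 and 40 in number, were also high, with 4453 and 2480 CPM. Junctional nuclei of both kinds were 2.35% of knockout and 1.93% of WT myonuclei and held 18.6% (17.8 to 19.3) and 39.1% (36.7 to 41.7) of the Lama2 UMIs of myonuclei. The junctional class was named from its own markers, which summed to 2374 and 2128 CPM. Tenocyte markers there were at 0 UMIs in the knockout and 3 in WT, and fibro-adipogenic markers at 31.2 and 69.4 CPM.

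Outside the junctions Lama2 reached 711 CPM in the knockout and 107 in WT, a 6.65-fold ratio (6.22 to 7.13). To compare shares of nuclei at 1 depth, each nucleus was thinned to 500 UMIs, which left out 1791 shallower WT nuclei and 0 knockout nuclei. After thinning, 22.2% (21.1 to 23.4) of knockout and 4.96% (4.47 to 5.49) of WT myonuclei outside the junctions had a Lama2 UMI, against 45.0% and 8.04% without thinning. Within type IIb the shares were 24.8% (23.5 to 26.2) and 5.06%, within IIx 10.3% and 4.57%, and within IIa 8.52% and 3.85%. Without thinning, the top 5% of myonuclei outside the junctions held 39.8% of their Lama2 UMIs in the knockout and 70.3% in WT. The highest single nucleus had 50 and 9. Only 8.04% of the WT nuclei had a UMI and the depths were unlike, so these values do not compare how the UMIs were spread.

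Classes that are not known as sources of merosin were taken as a background for these shares. Macrophage-like nuclei had a Lama2 UMI in 16.1% (11.4 to 21.6) of knockout and 7.92% (3.48 to 15.01) of WT nuclei after thinning (25.7% and 13.5% without), at a median depth of 995 and 673 UMIs against 1772 and 706 in myonuclei. Their Lama2 levels were 523 and 173 CPM (log2 ratio 1.56, 0.93 to 2.34), and their pan-myonuclear transcripts stood at 51.5% and 54.0% of the level in myonuclei. B-like nuclei, 63 in the knockout, held 862 CPM of Lama2 (667 to 1097), level with the myonuclei, at 45.0% of the pan-myonuclear level, whereas adipocyte-like nuclei held 99.5, with a UMI in 3.16% of nuclei. In WT myonuclei outside the junctions and in type IIx and IIa nuclei of both libraries, the Lama2 share did not exceed the macrophage-like share. By that class alone, those shares were not told apart from background. The share of type IIb nuclei of the knockout lay above the macrophage-like share. The part of myonuclear RNA in the macrophage-like share of Lama2 was not tested. The reading against macrophage-like nuclei also turns with the class chosen. By level, knockout type IIb nuclei outside the junctions (782 CPM) were not above B-like nuclei. By the adipocyte-like share (2.14 to 4.48) the knockout IIx and IIa shares (from 7.84 and 5.48) were above. Junctional and fibro-adipogenic-like nuclei lay above the macrophage-like share in both libraries, with a Lama2 UMI in 86.3% and 71.3% of myotendinous junction-like and 61.4% and 31.2% of fibro-adipogenic-like nuclei.

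**Figure D1:**
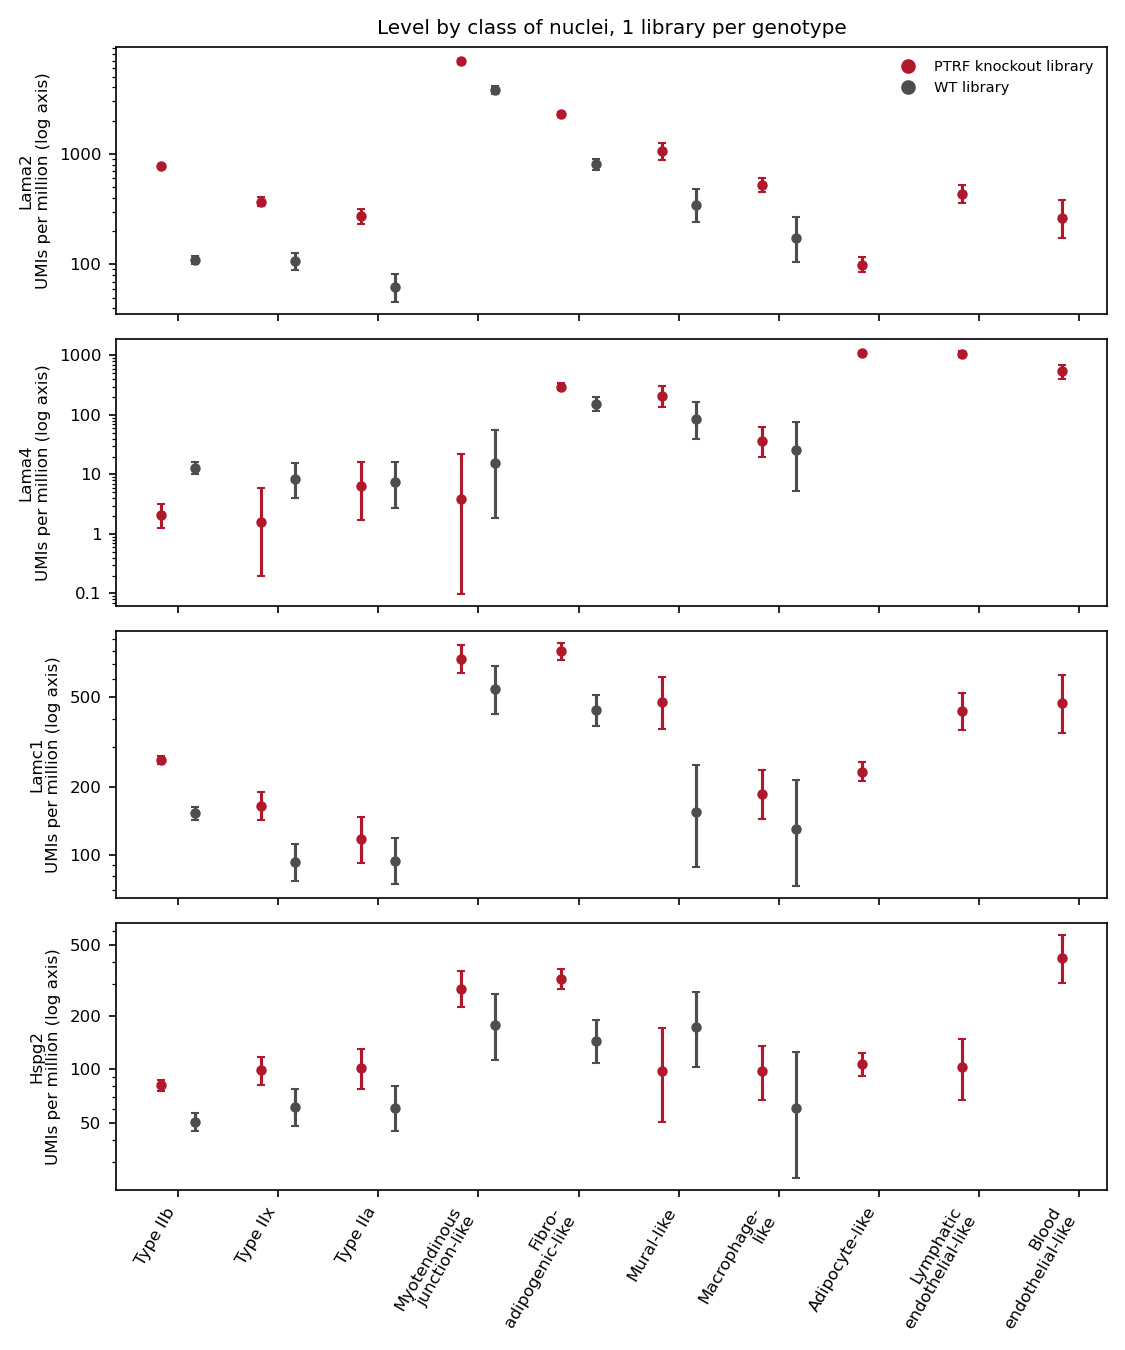
Levels of Lama2, Lama4, Lamc1 and Hspg2 (CPM of the class, log axis) in each class of nuclei with at least 50 nuclei in that library, for the PTRF knockout library and the WT library. Points are class sums, bars are 95% exact Poisson intervals, and fibre types leave out junctional nuclei. Lama2 is highest in myotendinous junction-like nuclei in both libraries (6881 and 3801) and is higher in the knockout in all 7 classes shown for both, whereas Lama4 is highest in adipocyte-like and lymphatic endothelial-like nuclei of the knockout (1119.7 and 1045).

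Fibre types, set by the leading adult myosin heavy chain gene of each nucleus, differed in Lama2 level. Outside the junctions, type IIb nuclei (leading Myh4, the fastest fibres) held 782 CPM in the knockout and 110.1 in WT, a log2 ratio of 2.83 (2.71 to 2.95). Type IIx nuclei (Myh1) held 368 and 107 (1.78, 1.49 to 2.08), and type IIa nuclei (Myh2) held 274 and 61.9 (2.13, 1.68 to 2.63). In the knockout the order was IIb, IIx, IIa, with IIb 2.12-fold above IIx (1.93 to 2.34) and IIx 1.34-fold above IIa (1.13 to 1.61). In WT, IIb and IIx did not differ beyond counting error (1.03-fold, 0.85 to 1.25) and both were above IIa. Type I nuclei (Myh7) were few, 36 and 15, with 65 and 4 Lama2 UMIs.

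The knockout library held nuclei of both sexes, so Lama2 was also read within sex-linked marking. Myonuclei of the knockout held 516 CPM of Lama2 where marked by Xist (575 nuclei) and 919 where marked by Y-linked genes (2751), against 152 in Y-marked WT myonuclei (2483). Their log2 ratios over WT were 1.76 (1.59 to 1.93) and 2.59 (2.47 to 2.72), so Lama2 was above WT in both, and Xist-marked nuclei were below Y-marked ones of the same library (-0.83, -0.96 to -0.71). Outside the junctions the 3 levels, in the same order, were 353, 846 and 94.1 in type IIb, 299 (224 to 390), 372 and 94.98 in type IIx, and 154 (95.5 to 236), 363 and 37.3 in type IIa. In Y-marked knockout nuclei IIb was above IIx and IIa, whose intervals overlapped (329 to 420 and 299 to 435), and in Xist-marked ones the IIb interval (310 to 400) overlapped that of IIx. Fibro-adipogenic-like nuclei held 2996, 1811 and 636, and myotendinous junction-like nuclei 6828, 6647 and 4541. Lamc1 in myonuclei was at 168, 269.9 and 142, where the Xist-marked ratio over WT of 0.24 (-0.01 to 0.48) held 0. Whether the marked nuclei come from separate animals is not given, and the part of sex or animal in these differences was not tested.

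**Figure D2:**
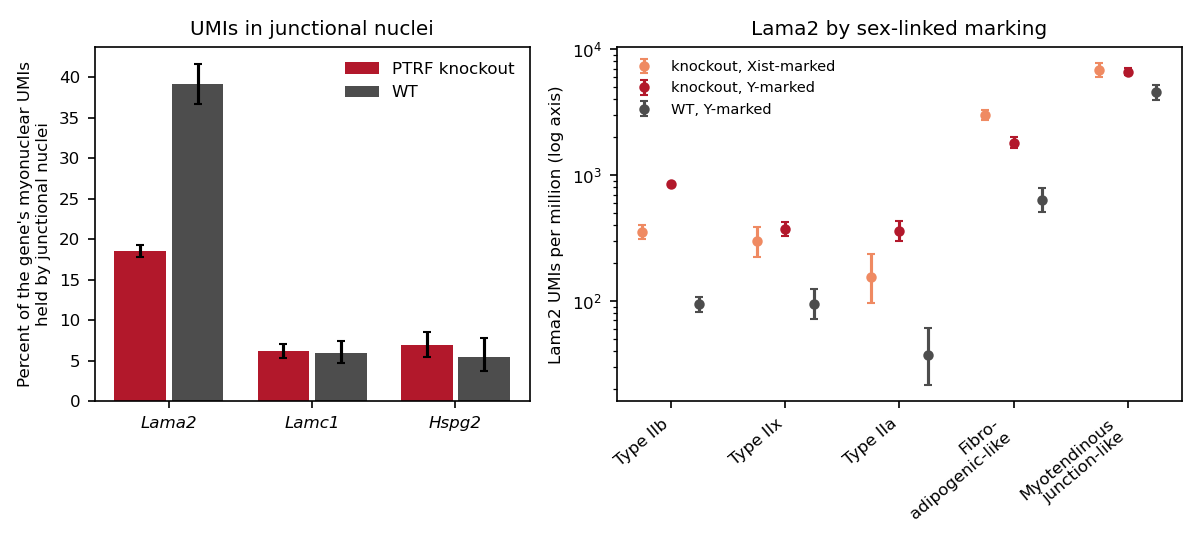
Left, the share of myonuclear UMIs of Lama2, Lamc1 and Hspg2 held by junctional nuclei (percent, bars from 0, 95% Clopper-Pearson intervals) in the PTRF knockout and WT libraries. Right, Lama2 level (CPM of the class, log axis, 95% Poisson intervals) in Xist-marked knockout, Y-marked knockout and Y-marked WT nuclei by class, with junctional nuclei left out of the fibre types. Junctional nuclei hold 18.6% and 39.1% of the Lama2 UMIs but 6.21% and 5.97% of those of Lamc1, and in every class shown both knockout markings lie above WT for Lama2.

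Lama4 and Lama5, the alpha chains typical of vessels, were lower in knockout than in WT myonuclei over all nuclei. Lama4 had 36 UMIs in knockout and 105 in WT myonuclei-like nuclei, or 2.91 and 11.9 CPM, a log2 ratio of -2.02 (-2.62 to -1.48). Lama5 had 312 and 356 UMIs, or 25.2 and 40.4 CPM (-0.68, -0.90 to -0.46), and was within 2-fold, and among Y-marked nuclei of both libraries its interval held 0 (-0.35, -0.69 to 0.01). In type IIb nuclei Lama4 was at 2.01 and 13.04 CPM and Lama5 at 26.4 and 45.2. In type IIx nuclei the Lama5 levels of 28.4 and 37.0 did not differ beyond counting error, and in type IIa nuclei it had 5 and 10 UMIs. Of the Lama2, Lama4 and Lama5 UMIs of myonuclei, Lama2 made up 96.8% in the knockout and 76.7% in WT, Lama5 2.87% and 18.0%, and Lama4 0.331% and 5.31%. The level of Lama4 in knockout myonuclei was 403-fold (290 to 596) below that of adipocyte-like nuclei of the same library, comparing nuclei outside the junctions.

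Transcripts of other cell types were also lower in knockout myonuclei. The 7 blood endothelial markers summed to 6.88 CPM in the knockout and 52.9 in WT (log2 ratio -2.94), the 7 lymphatic endothelial markers to 8.57 and 34.9 (-2.02), the 9 fibro-adipogenic markers to 28.1 and 57.7 (-1.04) and the 8 adipocyte markers to 76.6 and 150.4 (-0.97). None of these 31 markers was at 0 in either library. Pericyte markers ran the other way, at 377 and 271 (0.47), with Kcnj8 at 0 in the knockout, and the 6 pan-myonuclear transcripts stood at 72288 and 93247 (-0.37). In Xist-marked knockout myonuclei Lama4 had 9 UMIs (8.06 CPM), against 11.3 CPM in Y-marked WT, an interval of the log2 ratio from -1.72 to 0.58. Macrophage-like nuclei held Lama4 at 37.2 CPM in the knockout and 26.0 in WT (13 and 3 UMIs), beside 2.91 and 11.9 in myonuclei. The interval of the WT macrophage-like value (5.35 to 75.9) holds the myonuclear level. By that class alone, the myonuclear levels of Lama4 were not told apart from background. The part of other cells' RNA in the ratio of Lama4 was not tested.

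**Figure D3:**
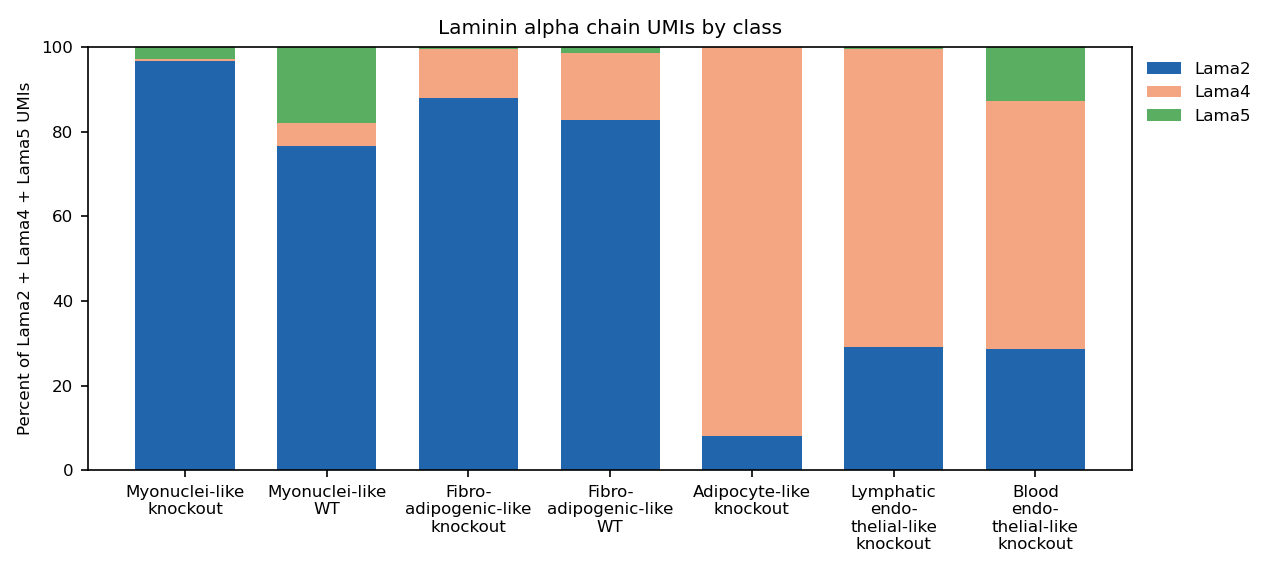
Share of each alpha chain among all Lama2, Lama4 and Lama5 UMIs (percent, not scaled by gene length) in classes of the PTRF knockout and WT libraries. Lama2 makes up 96.8% of the alpha chain UMIs in knockout and 76.7% in WT myonuclei, 88.0% and 82.8% in fibro-adipogenic-like nuclei, and 8.15% in adipocyte-like nuclei of the knockout, where Lama4 makes up 91.8%.

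The beta chains split by class. Lamb2, the beta chain known to be concentrated at the neuromuscular junction, had 258 UMIs in knockout and 201 in WT myonuclei-like nuclei, or 20.9 and 22.8 CPM, with an interval of the log2 ratio from -0.40 to 0.14 that holds 0. Its intervals also held 0 in type IIb, IIx and IIa nuclei. Neuromuscular junction-like nuclei held only 1 and 4 Lamb2 UMIs, too few to place it there. Lamb1 was near its floor in myonuclei, with 9 and 17 UMIs (-1.37, -2.76 to -0.16), and made up 3.37% and 7.80% of the beta chain UMIs there. In fibro-adipogenic-like nuclei it made up 72.1% (59.9 to 82.3) and 48.4% (30.2 to 66.9), and in adipocyte-like nuclei of the knockout 94.2%.

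Lamc1, the gamma chain shared by most laminin trimers, was higher in knockout myonuclei by less than 2-fold. It had 3154 UMIs in the knockout and 1257 in WT, or 255 and 143 CPM, a log2 ratio of 0.84 (0.74 to 0.93), and the ratio was the same to 2 decimals outside the junctions. By fibre type the levels were 271 and 156 in IIb (0.80, 0.69 to 0.91), 168 and 102 in IIx (0.71, 0.39 to 1.05) and 125 and 100.1 in IIa (0.32, -0.15 to 0.78). IIb nuclei were the highest of the 3 types in both libraries. At the myotendinous junction Lamc1 reached 737 and 540 CPM (0.44, 0.05 to 0.87), 3.01-fold and 3.97-fold above the other myonuclei, and junctional nuclei held 6.21% and 5.97% of its myonuclear UMIs. After thinning, 11.2% of knockout and 6.65% of WT myonuclei had a Lamc1 UMI, against 5.96% and 6.93% of macrophage-like nuclei. By that class alone its WT share was not told apart from background either. Macrophage-like nuclei held pan-myonuclear transcripts too, as given for Lama2, and the part of myonuclear RNA in their Lamc1 share was not tested.

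The nidogens had few UMIs in myonuclei, and fewer in the knockout. Nid1 had 16 in the knockout and 36 in WT (-1.64, -2.61 to -0.77) and Nid2 had 3 and 24 (-3.30, -5.87 to -1.77). Their levels of 1.29 and 4.09 CPM for Nid1, and 0.243 and 2.73 for Nid2, were far below those of fibro-adipogenic-like nuclei, which held 220.2 and 149.9 for Nid1 and 55.1 and 57.9 for Nid2. Macrophage-like nuclei held 5.72 and 17.3 CPM of Nid1 and 14.3 and 17.3 of Nid2, no lower than the myonuclei. Those values rest on only 2 to 5 UMIs each, and by them the myonuclear levels of both were not told apart from background. The non-muscle marker sums given beside Lama4 moved with these ratios too, and their part in them was not tested.

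Hspg2, which encodes perlecan, was higher in knockout myonuclei by less than 2-fold. It had 1105 UMIs in the knockout and 507 in WT, or 89.4 and 57.6 CPM (0.63, 0.48 to 0.79), with a ratio of 0.88 (0.64 to 1.14) among Y-marked nuclei and 0.45 (0.03 to 0.85) for Xist-marked knockout over Y-marked WT nuclei. The ratio was close to this in each fibre type, with 84.0 and 52.5 in IIb (0.68), 103.5 and 63.0 in IIx (0.71) and 102.9 and 60.5 in IIa (0.76, 0.21 to 1.33). Unlike Lama2 and Lamc1, its level was not highest in IIb nuclei, and outside the junctions knockout IIb was 0.82 times IIx (0.68 to 1.01), an interval that holds equality. At the myotendinous junction it reached 285 and 177 (0.66, -0.01 to 1.43), 3.36-fold and 3.26-fold above the other myonuclei. After thinning, 4.34% of knockout and 3.06% of WT myonuclei had a Hspg2 UMI, against 5.50% and 5.94% of macrophage-like nuclei. By that class alone neither share was told apart from background. The part of myonuclear RNA in the macrophage-like share of Hspg2 was not tested either.

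**Figure D4:**
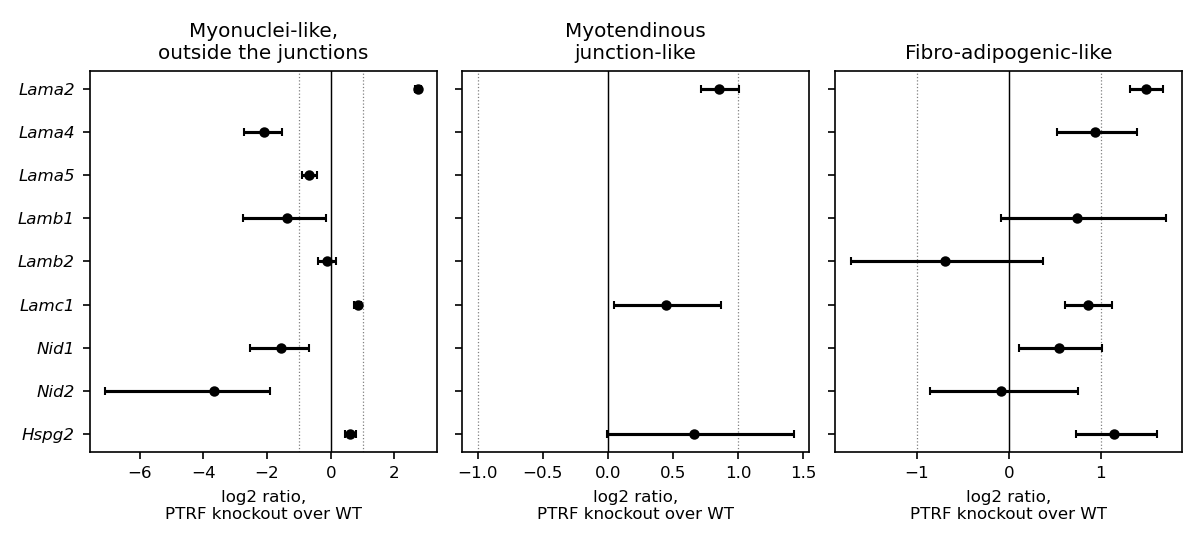
Log2 ratio of PTRF knockout to WT for each of the 9 genes with at least 20 UMIs over both libraries, in myonuclei-like nuclei outside the junctions, in myotendinous junction-like nuclei and in fibro-adipogenic-like nuclei. Points are ratios of CPM, bars are 95% exact conditional intervals for counting error, dotted lines mark 2-fold and the panels have different scales. Lama2 is above 0 in all 3 panels, at 2.73, 0.86 and 1.49, and Lama4 lies at -2.08 in the first and 0.94 in the third.

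Nuclei of the fibro-adipogenic-like class, connective tissue cells between the fibres marked by Pdgfra and Dcn, held all of the genes but Lama5 at higher levels than myonuclei in both libraries, although for Lamb2 in the knockout the interval of the ratio to myonuclei outside the junctions held equality (1.31-fold, 0.76 to 2.04). Lama2 had 1660 UMIs in the knockout and 308 in WT there, or 2285 and 810.2 CPM (1.49, 1.32 to 1.68). Hspg2 had 235 and 55 UMIs (323 and 145 CPM; 1.15, 0.73 to 1.61). Of the 8 genes with enough UMIs, these 2 were past 2-fold higher and 0 past 2-fold lower. Over 6626 genes 15.3% were past 2-fold higher and 7.08% lower, and the median log2 ratio was 0.80 for the 8 and 0.28 for all. Lama4 was at 300.1 and 155 CPM (0.94, 0.53 to 1.39), Lamc1 at 794 and 437 (0.86, 0.61 to 1.12) and Nid1 at 220.2 and 149.9 (0.55, 0.11 to 1.02). Among Y-marked nuclei of both libraries the log2 ratios were 1.06 (0.61 to 1.55) for Lamc1 and 0.86 (0.02 to 1.84) for Hspg2, whereas the intervals of Lama4 (0.22, -0.60 to 1.12) and Nid1 (0.54, -0.40 to 1.63) held 0. For Xist-marked knockout over Y-marked WT nuclei they were 0.67 for Lamc1, 1.38 for Hspg2, 1.74 (1.02 to 2.58) for Lama4 and 1.76 (0.90 to 2.81) for Nid1. The intervals of Lamb1 (49 and 15 UMIs), Lamb2 (19 and 16) and Nid2 (40 and 22) held 0, and Lama5 had 8 and 5 UMIs.

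The content of that class also differed between the libraries. Its 9 fibro-adipogenic markers summed to 4076 CPM in the knockout and 1784 in WT (log2 ratio 1.19, 1.07 to 1.31), with none at 0 in either, and the 6 pan-myonuclear transcripts to 25939 and 59663, or 35.9% and 64.0% of their level in myonuclei. The part of this difference in the ratios of the laminin genes was not tested. When nuclei were instead assigned from their own markers, which left 411 and 75 nuclei, the median over the genes was 0.19 and 0 were past 2-fold.

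In mural-like nuclei, which cover vessels and carry a basement membrane of their own, 5 of the 9 genes had at least 20 UMIs. Of these, 4 (Lama2, Lama4, Lamc1 and Nid1) were past 2-fold higher and 0 past 2-fold lower, beside 16.4% and 5.13% of 2123 genes. Lama2 had 129 UMIs in the knockout and 36 in WT, or 1052 and 346 CPM (1.59, 1.06 to 2.18), and Lamc1 had 58 and 16 (1.59, 0.80 to 2.52). Lama4 was at 212 and 86.5 CPM (26 and 9 UMIs; 1.24, 0.16 to 2.57), whereas Hspg2 was at 97.9 and 173 (12 and 18 UMIs; -0.80, -2.01 to 0.31). The interval of Nid1, with 15 and 5 UMIs, held 0 (1.26, -0.18 to 3.16). Here too the content differed, with pericyte markers at 4021 and 2066, smooth muscle markers at 954 and 1413 and pan-myonuclear transcripts at 28753 and 62007 CPM. The part of these differences in the ratios was not tested.

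By fibre type Lama2 was again the gene past 2-fold higher. Myonuclei without a leading myosin gene, 297 in the knockout and 1365 in WT, belong to no type. Of 5 genes measured there, 3 were past 2-fold higher and 0 lower: Lama2 (2.46), Lamc1 (1.28, 0.93 to 1.62) and Hspg2 (1.03, 0.51 to 1.54). The median log2 ratio of all genes there was 0.21, and their share past 2-fold was not counted. In type IIb nuclei, junctional ones included, 7 of the 9 genes were measured, of which 1 was past 2-fold higher and 2 past 2-fold lower, beside 4.80% and 23.5% of all genes. In type IIx nuclei 5 were measured, with 1 higher and 0 lower, beside 6.66% and 7.06%. In type IIa nuclei 4 were measured, with 1 higher and 0 lower, beside 8.14% and 5.63%. At the myotendinous junction 3 were measured and 0 were past 2-fold in either direction, beside 12.9% and 4.13%.

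Lama4 was at its highest levels in adipocyte-like and endothelial-like nuclei, which could be described in the knockout only. The 949 adipocyte-like nuclei held 1947 Lama4 UMIs, or 1119.7 CPM, and 40.0% of them had a Lama4 UMI after thinning (68.5% without). Lamb1 stood at 205 CPM there, Lamc1 at 233, Hspg2 at 106, Nid1 at 56.9, Lamb2 at 12.7, Nid2 at 8.63 and Lama5 at 1.15. Lymphatic endothelial-like nuclei had Lama4 at 1045 CPM (70.4% of alpha chain UMIs), Lamc1 at 432, Lama2 at 432, Lamb1 at 117 (81.6% of beta chain UMIs), Hspg2 at 102, Nid1 at 79.5 and Nid2 at 45.4. Blood endothelial-like nuclei had Lama4 at 538 (58.5%) and Lama5 at 117, from 12 UMIs (12.8%), with Lamc1 at 469.6 and Hspg2 at 421 (304 to 567), an interval that overlaps that of fibro-adipogenic-like nuclei of the knockout (283 to 368). The Lama5 level there (61 to 205 CPM from 12 UMIs) lay above the 25.2 of knockout myonuclei.

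The other genes of the pathway were taken as 45 genes in 5 groups, of which those named as highest or lowest are among the genes with at least 50 UMIs. Beside the counts in myonuclei stand 4.56% of all 15793 genes past 2-fold higher and 26.6% lower, with a median log2 ratio of -0.14. In myonuclei the 5 other laminin chains were all measured, 0 past 2-fold higher and 3 lower (median log2 ratio -1.54), with Lama3 at 3 and 67 UMIs (-4.76, -7.29 to -3.36) and Lamb3 at 54 and 77 (-0.998). Of the 6 type IV collagen chains, which form the second network of the membrane, 2 were past 2-fold higher and 3 lower (median -0.80). Col4a5 had 264 UMIs in the knockout and 64 in WT (1.55, 1.16 to 1.97) and Col4a2 429 and 118 (1.37, 1.08 to 1.68), whereas Col4a6 had 8 and 60 (-3.32) and Col4a4 18 and 76 (-2.54). Of 13 other basement membrane residents, 0 were past 2-fold higher and 5 lower (median -0.49). Egflam, which encodes the dystroglycan ligand pikachurin, was the highest at 560 and 211 UMIs (0.92, 0.69 to 1.15) and then Ntn4 at 317 and 157 (0.52). Frem1 at 13 and 66 (-2.79) and Col15a1 at 22 and 56 (-1.82) were the lowest.

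Receptors on the fibre surface included genes on both sides. Of 7 laminin receptors in myonuclei, 1 was past 2-fold higher and 3 lower (median -0.57), beside 4.56% and 26.6% of all genes (median -0.14). Itgb1, the beta 1 integrin subunit, had 1909 UMIs in the knockout and 641 in WT, or 154 and 72.8 CPM (1.08, 0.96 to 1.22). Dag1, which encodes dystroglycan, had 5303 and 3614, or 429 and 411 CPM, close to level (0.06, 0.00 to 0.12). Itga1 (12 and 73 UMIs, -3.05) and Itga6 (14 and 43, -2.07), the alpha subunits of collagen and laminin integrins of other cell types as well, were the lowest. Of 11 enzymes that build the laminin-binding sugar of dystroglycan, 0 were past 2-fold in either direction (median 0.26). B3galnt2 had 3351 UMIs in the knockout and 1406 in WT (0.76). Rxylt1 at 57 and 80 (-0.98) and Pomgnt2 at 88 and 103 (-0.72) were the lowest.

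In fibro-adipogenic-like nuclei 0 of these genes with at least 20 UMIs were past 2-fold lower. Of 6 type IV collagen chains 2 were past 2-fold higher (median 0.27), namely Col4a1 at 572 UMIs in the knockout and 84 in WT (1.83, 1.501 to 2.18) and Col4a2 at 255 and 56 (1.24), while Col4a3 at 36 and 32 (-0.77) and Col4a5 at 46 and 27 (-0.18) were the lowest of those with at least 50 UMIs. Of 11 other residents 5 were past 2-fold higher (median 0.66), among them Pxdn, an enzyme that cross-links type IV collagen, at 64 and 14 (1.22) and Smoc2 at 544 and 132 (1.10), and the lowest of those with at least 50 UMIs were Ntn4 (0.38) and Sparc (0.50). Of 4 receptors 2 were past 2-fold higher (median 0.45), with Itgb1 at 137 and 28 (1.34) and Dag1 at 173 and 117 (-0.37). Of 4 sugar enzymes 0 were past 2-fold (median 0.41), with B3galnt2 at -0.05. None of the 5 other laminin chains had enough UMIs. Among all 6626 genes of that class 15.3% were past 2-fold higher and 7.08% lower, with a median log2 ratio of 0.28. The counts of the groups also stand beside the fibro-adipogenic marker sum of 4076 and 1784 CPM given above.

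The genes most like each member in pattern were read over 25 profiles of a class in a library, among 7609 genes, by Pearson correlation of log2(CPM + 1). The profiles share 2 libraries and their depths, so the correlations are descriptions only. Lama2 was most like Anxa4 (0.84), Pde10a (0.78) and Sema3c (0.76). Lama4 was most like Ebf1 and Magi3 (0.94 each) and Efna5 (0.93), Nid1 like Sdc2 (0.94), Col6a2 (0.93) and Gulp1 (0.92), and Lamb1 like Acss3 (0.87), Adcy5 and Chd9 (0.86 each). Hspg2 was most like Col4a2 (0.82), Gask1b (0.77) and Cdc42bpa (0.73), and Lamc1 like Creb3l2 (0.85), Maml2 (0.79) and Cdc42bpa (0.77). Lama5 was most like Ftsj1, Ccdc146 (0.73 each) and Zfp442 (0.72), and Lamb2 like Mrpl21 (0.93), Xpo5 (0.92) and Anp32e (0.90). Nid2, with 142 UMIs in all, was too low for this.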

How the data were processed

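Single nuclei of quadriceps were profiled with a droplet kit that reads the 3′ ends of RNA, 1 library per genotype. The deposited matrices hold raw UMI counts per gene and nucleus, which Cell Ranger 6.0.0 wrote, per the file headers. STAR, Seurat 4.1.1 and the mm10 and GRCm38 builds are named, without roles, in the submitters' processing notes. No source used here says whether introns were counted.

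A nucleus was kept if it had 200 or more genes and no more than 5% of its UMIs from mitochondrial genes. With scanpy 1.11.5, leidenalg 0.10.2, scikit-learn 1.9.0, numpy 2.4.6 and Python 3.11.15, both libraries were clustered together on 2000 variable genes, 30 principal components and 15 neighbours (Leiden resolution 1, seed 7, 24 clusters), without the 9 described genes. Clusters were named from 17 marker lists where the best list's score reached 2 at least 3 of its markers were detected and 1 or more was among the 10 genes leading the cluster, and as myonuclei where pan-myonuclear transcripts reached 50000 CPM (UMIs scaled to a total of 1000000). Doublets were not removed. Counts were summed per class and library, with exact Poisson, binomial and conditional binomial intervals at 95% (scipy 1.17.1). Ratios of the 9 genes needed 10 UMIs and calls past 2-fold needed 20 over both libraries. No test between genotypes was made, since nuclei of 1 library are not replicates. The ratio and interval steps were tested on simulated counts with known changes.

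Gene lengths and overlaps came from GENCODE M21, which matched 52093 of the 53700 features, and promoters from RefSeq. All 9 genes are described, beside 45 pathway genes in 5 groups, of which up to 2 with the highest and 2 with the lowest ratio are named per group among those with at least 50 UMIs. For each of the 9 with at least 200 UMIs, the 3 genes most like it are named. Values of some genes that the naming rule picks are not reported here. The members and lists were chosen with earlier results of these data known. Alternatives covered filters, thinning to 500 UMIs, clustering, scaling, sex-linked marking and minimum counts.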

Additional observations from a re-analysis of the deposited data

Results flagged for a closer look

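For a pair of genes the difference between genotypes ran in opposite directions in different classes of nuclei, with counting intervals on opposite sides of 0. The log2 ratio of Lama4 was 0.94 in fibro-adipogenic-like and -2.02 in myonuclei-like nuclei, a difference of 2.96. It was 1.24 in mural-like nuclei, a difference of 3.26 from myonuclei. The log2 ratio of Nid1 was 0.55 in fibro-adipogenic-like and -1.64 in myonuclei-like nuclei, a difference of 2.18. Among Y-marked nuclei of both libraries the fibro-adipogenic-like ratios of Lama4 (0.22, -0.60 to 1.12) and Nid1 (0.54, -0.40 to 1.63) had intervals that held 0. On the other side, the myonuclear levels of both genes were not told apart from background above. Nid1 in myonuclei was at 0.33 for Xist-marked knockout against Y-marked WT nuclei. With 1 library per genotype the differences between classes were not tested.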

How the results depend on the processing

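Over 555 values of single genes under the alternatives, 480 stayed within the counting interval of the main value and 72 moved beyond it. The other 3 changed sign where that interval left out 0. Hspg2 in type IIa nuclei reached -0.13 after thinning to 500 UMIs. Nid1 reached -0.091 in fibro-adipogenic-like nuclei assigned from each nucleus' own markers. In myonuclei Nid1 reached 0.33 for Xist-marked knockout against Y-marked WT nuclei. Sign changes of values whose main interval held 0 are not among the 3. Nid2 in fibro-adipogenic-like nuclei, at -0.09, ranged up to 0.57 under the alternatives. Lama2 stayed above 0 throughout, from 1.76 to 2.73 in myonuclei and 0.92 to 2.23 in fibro-adipogenic-like nuclei. Its size was less stable, beyond the counting interval in 9 settings in myonuclei and 3 in fibro-adipogenic-like nuclei. By fibre type it ranged from 1.22 to 2.83 in IIb, 1.51 to 2.20 in IIx and 1.47 to 4.30 in IIa. It was beyond its interval there in 8, 6 and 8 settings. Lama4 in myonuclei ranged from -2.60 to -0.43.

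The median of the 9 genes in myonuclei changed sign with nuclei of at least 500 genes (0.15) and for Xist-marked knockout against Y-marked WT nuclei (0.34), and moved to -0.37 after thinning and -0.037 among Y-marked nuclei. The count past 2-fold there, 5, became 3 with at least 500 genes, 2 after thinning, 3 among Y-marked nuclei, 1 for Xist-marked against Y-marked and 2 with at least 100 UMIs per gene. In fibro-adipogenic-like nuclei the median of 0.80 moved to 0.19 with marker-assigned nuclei and 1.74 for Xist-marked against Y-marked. The count there, 2, became 0 and 4 under those settings, and 1 both with a class total without Rn18s, Malat1, Ttn and mitochondrial genes and with ratios centred on all genes. The cause of these changes was not tested.

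No paired analysis was possible because each genotype has 1 library. The planned setting that counts unnamed clusters led by repeat genes as myonuclei was not run, since no such cluster formed. Leaving out nuclei with a Gm10800 or Gm10801 UMI (302 knockout and 2092 WT), junctional nuclei or barcodes in both libraries was added after seeing the data. Genes with few UMIs, such as Lamb1 and Nid2 in myonuclei, have intervals wider than 2-fold, and no interval covers animals.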

Other observations

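The remaining classes held few nuclei of at least 1 library. Satellite-like nuclei, the muscle stem cells, numbered 8 in the knockout and 53 in WT, and the WT ones held 26 Lama2 UMIs (558 CPM), with Lamc1 at 279 and Hspg2 at 85.8. An unnamed cluster of 115 knockout and 251 WT nuclei, led by Nnat, Npr3 and Tshr, had Lama4 at 317 and 423 CPM (log2 ratio -0.41, -0.85 to 0.01), above the level of myonuclei in both libraries. In that cluster Lama2 was at 397 and 84.6 (2.20, 1.54 to 2.98), Hspg2 at 117 and 254 (-1.10, -1.79 to -0.47) and Nid1 at 2 and 28 UMIs (-3.60, -7.02 to -1.91). The cluster was not stable. At a clustering resolution of 0.5 the cluster led by Nnat, Npr3 and Tshr held 5 knockout and 239 WT nuclei. Adipocyte-like nuclei numbered 1058 and 9 at that resolution. These ratios may therefore compare unlike nuclei, and the part of this was not tested.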
